A study of Mus musculus with 6 samples.

Results

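In mouse embryonic stem (ES) cells that make FLAG-CTCFL, 8 genes with large rises and known roles outside the germ line are described: Car4, Crygd, Wfdc15a, Irak3, Adgrl2, Hs6st2, Mbnl3 and Firre. All 8 of 8 were measured, among 19937 genes in all, each by the brightest probe set that the platform annotation assigns to its symbol. They were chosen for their differences between these same arrays, so those differences are given as a description with no test. The study compared 3 samples of cells carrying a control vector with 3 of cells carrying a vector for FLAG-tagged mouse CTCFL. The cells of both groups were cloned from the 46C line, which is male, carries a Sox1-GFP knock-in and has the 129P2/OlaHsd strain background. Both groups were kept in medium with 10% serum and under 1 µg/ml puromycin, and total RNA was read on 1-colour Affymetrix arrays. The labels do not tell whether each group is 1 transfected clone or several, and the p-values below therefore cover the spread among arrays, which may be technical.

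CTCFL, also called BORIS, is the testis paralog of CTCF, the zinc finger protein that binds insulators and, with cohesin, shapes chromatin loops. The 8 genes work in unrelated pathways. Car4 codes for a carbonic anhydrase anchored on the outer cell membrane, Crygd for a gamma-crystallin of the eye lens and Wfdc15a for a small secreted protein of the WAP domain family. Irak3, also called IRAK-M, is an inhibitor of IL-1 and Toll-like receptor signalling, and Adgrl2 is latrophilin-2, an adhesion G protein-coupled receptor. Hs6st2 adds sulfate to heparan sulfate chains, Mbnl3 is a muscleblind splicing regulator, and Firre is a long non-coding RNA. These last 3 genes lie close together on the X chromosome.

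The log2 signal of Ctcfl itself was 7.70, 7.85 and 7.89 with the control vector and 11.33, 11.22 and 11.24 with FLAG-CTCFL, so the vector's gene was high where the labels place it. Array medians lay between 7.92 and 7.99, and Pearson's r over all genes was 0.9969 to 0.9986 within groups and 0.9826 to 0.9849 between them. The background level used below is the signal under which 95% of 1194 odorant and pheromone receptor genes lay, 7.63 for the control means and 7.65 for the FLAG-CTCFL means. The 18 pluripotency genes listed to check the labelled cell type were all above it in both groups. Of these, 1 was higher and 11 were lower with FLAG-CTCFL, and their mean log2 signal was 12.05 to 12.06 in the control arrays and 11.65 to 11.83 in the others; the part of this in the rises of the 8 genes was not tested. A signal under it is not told apart from background. Over all genes 30.9% changed (limma with Benjamini-Hochberg adjustment, adjusted p under 0.05), 12.5% higher and 18.4% lower, and the 3 arrays of one group lay apart from those of the other for 41.3%. The split was 2496 higher and 3665 lower, and 3943 and 3306 after quantile normalization over the tested genes.

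Car4 had log2 signals of 8.11, 8.22 and 8.22 with the control vector and 9.74, 9.59 and 10.10 with FLAG-CTCFL. The groups did not overlap, and the FLAG-CTCFL arrays were spread more widely (SD 0.26, n = 3) than the control arrays (SD 0.06, n = 3). The mean went from 8.18 to 9.81, a difference of 1.63 ± 0.10 on the log2 scale (moderated SE), or 3.10-fold. Among all genes ranked by rise it was number 11, just under Asz1 (1.68), a germ line gene.

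Crygd signals were 7.66, 7.74 and 7.87 in the control arrays, at or just over the background level. In the FLAG-CTCFL arrays they were 9.17, 9.46 and 9.43, all well above it. The difference was 1.599 ± 0.07 (SE, n = 3 per group), or 3.03-fold. With a start so near background, it may be a lower bound on the change in transcript.

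Wfdc15a gave the most even signals of the larger rises. Its control arrays read 7.63, 7.58 and 7.57, with a mean of 7.60 under the background level, and its FLAG-CTCFL arrays 9.15, 9.17 and 9.16. The difference was 1.57 ± 0.04 (SE, n = 3 per group), or 2.96-fold on the signal scale. It starts from the background range, so it is a lower bound on the change in transcript.

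Irak3 was already read clearly above background in control cells, at 9.23, 9.24 and 9.33, and reached 10.93, 10.79 and 10.74 with FLAG-CTCFL. The lowest FLAG-CTCFL array lay 1.41 above the highest control array. The difference was 1.55 ± 0.05 (SE, n = 3 per group), or 2.93-fold.

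Adgrl2 was likewise above background at the start, at 9.595, 9.59 and 9.49, against 10.96, 10.89 and 11.14 with FLAG-CTCFL. The difference was 1.44 ± 0.06 (SE, n = 3 per group), or 2.71-fold. It was number 15 by rise, and the next gene below it was Prtg (1.41).

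The 3 X-linked genes had smaller rises. Hs6st2 read 7.33, 7.38 and 7.45 in the control arrays, all under the background level, and 8.18, 8.17 and 8.20 with FLAG-CTCFL, a difference of 0.80 ± 0.04 (SE, n = 3 per group; 1.74-fold) that is again a lower bound. Mbnl3 read 9.07, 9.19 and 9.21 against 9.95, 9.73 and 10.00, with a difference of 0.74 ± 0.07 (1.67-fold). Firre read 9.29, 8.96 and 9.07 against 9.69, 9.79 and 9.99, with a difference of 0.72 ± 0.08 (1.65-fold). Firre had the narrowest gap between the groups, 0.40, with control replicate 1 nearest to the FLAG-CTCFL arrays. By rise these genes were number 76, 94 and 99. Genes just above and below them were Eif2b4 (0.82) and Arg2 (0.80) for Hs6st2, Mbd3 (0.74) and Nlrp4c (0.73) for Mbnl3, and Zfp532 (0.72) and Zfp518a (0.72) for Firre.

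**Figure D1:**
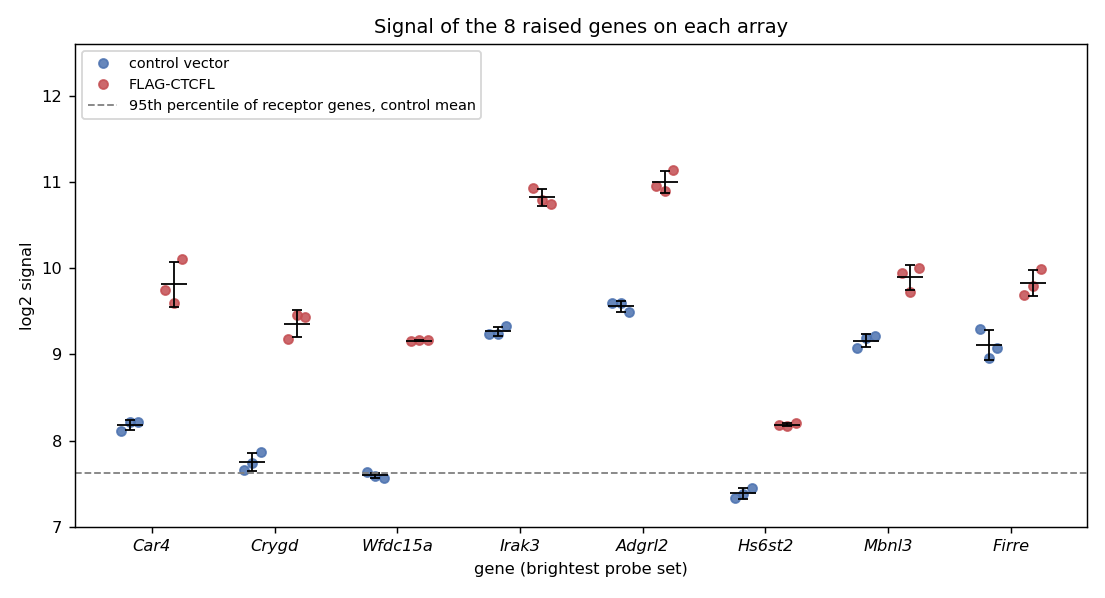
Log2 signal (y axis) of the 8 genes (x axis) on each of 3 control vector arrays (blue) and 3 FLAG-CTCFL arrays (red), with group mean and SD in black and the background level of 7.63 as a dashed line. Control signals of Wfdc15a and Hs6st2 sit at or under that line, those of Irak3, Adgrl2, Mbnl3 and Firre well above it, and in no gene do the groups overlap.

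All 8 genes were above the background level in the FLAG-CTCFL group and 6 of 8 in the control group, Crygd only just (mean 7.76). FLAG-CTCFL replicate 3 gave the highest signal of its group for 5 of the 8 and replicate 2 the lowest for 4. With any 1 array left out the difference ran from 1.49 to 1.74 for Car4 and from 0.64 to 0.81 for Firre. The arrays of the groups lay apart for all 8 genes, against 41.3% of all genes, and all 8 were past the threshold in the higher direction, against 12.5%; nothing is read from these counts, since the genes were chosen by this contrast. The median difference over the 8 genes was 1.496, against 0.0037 over all genes.

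The genes with the most similar profiles were found by Euclidean distance over the 6 arrays after subtraction of each gene's control mean. Wfdc15a and Irak3 were each other's nearest gene (distance 0.189), and Wfdc15a was also nearest to Crygd (0.290). Asz1 was nearest to Car4 (0.346), Prtg to Adgrl2 (0.253), M1ap to Hs6st2 (0.0581), Mbd3 to Mbnl3 (0.108) and Nudt17 to Firre (0.225). The second nearest were Wfdc15a for Car4 (0.408), Asz1 for Crygd (0.319), Wfdc15a (0.255) and Irak3 (0.262), Tuba3b for Adgrl2 (0.287), Mov10l1 for Hs6st2 (0.102), Chd7 for Mbnl3 (0.135) and Tex101 for Firre (0.242). The measure mainly ranks genes by the size of their rise, since the arrays form only 2 groups.

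Adgrl2 was read by 8 probe sets, and the other 7 genes by 1 each. All 8 probe sets had higher signals in each FLAG-CTCFL array than in any control array. Their differences ran from 0.33 to 1.44 with a median of 0.997. In 5 probe sets the control mean was above background and the difference was at least 0.78, and in the 3 whose control mean was below it the difference was at most 0.67. The mean of all 8 gave 0.94 in place of 1.44, so the size quoted for Adgrl2 depends on the probe set.

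**Figure D2:**
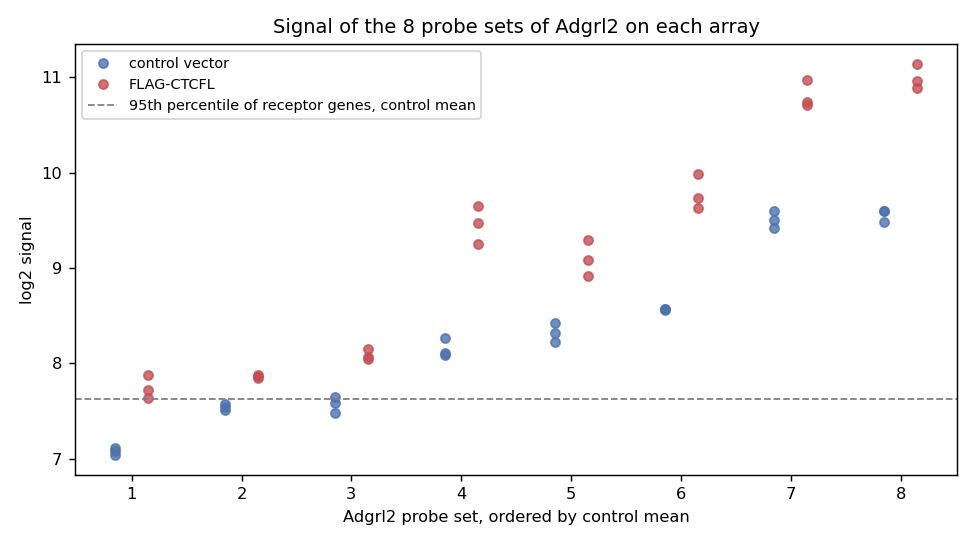
Log2 signal (y axis) of the 8 Adgrl2 probe sets (x axis, ordered by control mean) on the control vector arrays (blue) and the FLAG-CTCFL arrays (red), with the background level of 7.63 as a dashed line. Red points lie above blue points in every probe set, and the dimmest 3 sets have the smallest gaps, 0.33 to 0.67.

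Promoters of the 3 X-linked neighbours and of Irak3 and Crygd are shown as 3 windows with more CpG dinucleotides than the median window of all genes and 2 at that median. The 250 bases before each annotated start (RefSeq, GRCm38.p6, all on the minus strand) are written 5′ to 3′ in lower case, and CpG dinucleotides are in capitals. They lie at chrX:50635322-50635571 for Firre, chrX:51205991-51206240 for Mbnl3, chrX:51680478-51680727 for the inner start of Hs6st2, chr10:120202131-120202380 for the outer start of Irak3 and chr1:65063441-65063690 for Crygd.
Firre: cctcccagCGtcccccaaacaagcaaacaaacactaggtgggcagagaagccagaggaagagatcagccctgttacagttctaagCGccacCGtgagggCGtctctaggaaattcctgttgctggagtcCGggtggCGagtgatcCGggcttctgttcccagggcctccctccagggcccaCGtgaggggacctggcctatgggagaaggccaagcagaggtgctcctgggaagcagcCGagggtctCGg
Mbnl3: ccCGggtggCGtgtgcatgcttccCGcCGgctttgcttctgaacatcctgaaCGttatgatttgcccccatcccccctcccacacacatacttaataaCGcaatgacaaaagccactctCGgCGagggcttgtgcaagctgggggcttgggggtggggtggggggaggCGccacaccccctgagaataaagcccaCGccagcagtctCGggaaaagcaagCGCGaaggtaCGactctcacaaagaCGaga
Hs6st2: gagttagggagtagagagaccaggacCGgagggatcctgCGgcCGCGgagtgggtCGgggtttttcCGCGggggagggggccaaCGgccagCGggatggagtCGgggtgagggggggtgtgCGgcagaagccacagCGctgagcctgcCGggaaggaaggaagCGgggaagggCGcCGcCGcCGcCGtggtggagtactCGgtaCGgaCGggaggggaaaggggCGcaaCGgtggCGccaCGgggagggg
Irak3: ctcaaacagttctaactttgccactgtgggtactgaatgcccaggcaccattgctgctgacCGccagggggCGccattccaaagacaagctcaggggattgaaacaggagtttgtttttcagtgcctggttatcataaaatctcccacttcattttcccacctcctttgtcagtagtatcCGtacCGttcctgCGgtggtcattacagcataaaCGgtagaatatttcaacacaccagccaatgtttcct
Crygd: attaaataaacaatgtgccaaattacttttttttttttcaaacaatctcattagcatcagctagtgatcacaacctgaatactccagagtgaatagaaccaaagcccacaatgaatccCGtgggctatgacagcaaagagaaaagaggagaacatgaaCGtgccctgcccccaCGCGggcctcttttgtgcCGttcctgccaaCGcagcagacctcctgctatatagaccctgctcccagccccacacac

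RefSeq listed 10 such windows for the 8 genes, with a second start for Irak3 and for Hs6st2. The window before the inner start of Hs6st2 held 26 CpG dinucleotides and 72% GC, that of Mbnl3 15 and 59.2%, and that of Firre 10 and 61.6%. Crygd had 6, Wfdc15a 5 and Adgrl2 3, against a median of 6 and quartiles of 2 and 16 over 32851 windows of all genes. Car4 had 11, the outer start of Hs6st2 7, and the inner and outer starts of Irak3 19 and 6. The 8 genes thus share no CpG class.

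CTCF and CTCFL recognise similar DNA, so each window was searched on both strands for AGGNGGC, a short part of the CTCF core motif. It was found before the inner and outer starts of Irak3, ending 226 and 179 bases upstream, and before the inner start of Hs6st2, ending 170 bases upstream. That is 3 of 10 windows, against 25% of all windows, so the share is near the background. Longer forms of the motif were not searched, so this share does not tell how well each match fits the full motif. Windows of the other genes did not hold it, which says only that these letters are not in the 250 bases.

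Neighbouring genes were read next, since they were chosen by position and not by value. Of 123 measured genes within 10 positions on either side of the 8, 26 changed (21.1%, against 30.9% of all genes), 13 higher and 13 lower. These shares depend on signal level. Among genes above the 50th percentile of mean signal, 24 of 54 neighbours changed, against 5130 of 9969 genes. There 11 neighbours were higher and 13 lower, against 1960 and 3170 genes. Quantile normalization of the whole data set gave 21 higher and 11 lower of the 123 neighbours, against 3451 and 3654 of all 19937 genes. Of 100 neighbours of the 5 autosomal genes 11 were higher and 9 lower, and the largest rise was that of Ccnyl1 (0.54), 4 positions from Crygd.

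Irak3 had a changed gene on each side. Tmbim4, which codes for a membrane protein that protects from cell death, read 10.25, 10.29 and 10.31 against 10.79, 10.83 and 10.72, and rose by 0.50 ± 0.04 (limma adjusted p = 1.82e-06). Helb, a DNA helicase on the other side, fell by 0.31 ± 0.05 (adjusted p = 0.000269), and Grip1 beyond it rose by 0.29. Llph (0.16) and Hmga2 (0.02) did not pass.

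Crygd lies in the gamma-crystallin cluster next to Crygc, Crygb and Cryga. Cryga read 7.64, 7.64 and 7.73 against 7.88, 7.99 and 8.01, and rose by 0.29 ± 0.05 (limma adjusted p = 0.000434). Crygc (0.01) and Crygb (-0.02) did not pass, nor did Crygf (-0.0020). Crygb and Crygf had both group means under the background level, so a lack of change cannot be read from them. Gamma-crystallin genes are close copies, so how far one probe set reads its neighbour is uncertain. Akr1cl, on the other side of Crygd, read 7.16, 7.13 and 7.19 against 7.62, 7.62 and 7.60. It rose by 0.45 ± 0.04 (adjusted p = 2.24e-06), with both means under the background level. Ccnyl1 (0.54) and Idh1 (0.25) rose and Map2 (-0.44) fell, while Plekhm3 (-0.01) and Fzd5 (-0.07) did not pass.

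Wfdc15a lies in a cluster of WAP domain and seminal vesicle genes. Wfdc15b, its nearest relative by name and position, gave -0.0030, Wfdc12 0.02, Wfdc5 0.08, Svs2 0.10 and Svs3b 0.07, none past the test. Each of these had both group means under the background level, so a lack of change cannot be read from them. Of its 20 neighbours Kcns1 rose (0.20) and Tomm34 fell (-0.28).

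Car4 had 3 higher and 3 lower neighbours, with Znhit3 (0.29) next to it on one side and Usp32 (-0.20) on the other. Mrm1 (0.36) and Brip1 (0.22) rose and Aatf (-0.36) and Dhrs11 (-0.29) fell. Myo19 (0.02), Pigw (0.13) and Appbp2 (0.07) did not pass, nor did 1700125H20Rik (0.03), with both means under background. Brip1 lost its call without control replicate 1 (adjusted p = 0.0660) or 3 (0.0823), without FLAG-CTCFL replicate 3 (0.0899) and after subtraction of array medians (0.0766). Near Adgrl2, 3 of 20 were lower and 1 higher. Rpf1 rose (0.30) and Ctbs (-0.21), Fubp1 (-0.13) and Usp33 (-0.16) fell, the calls of the last 2 lost under 9 and 10 of 16 alternatives. The 3 nearest genes on either side of Adgrl2 did not pass, among them Adgrl4, a related receptor, at 0.05. Of these Adgrl4, Gm5149, Ifi44l and 4930503B20Rik had both means under the background level, so no lack of change can be read there.

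On the X chromosome the order of measured genes runs Firre, Stk26, Frmd7, Rap2c, Mbnl3, Hs6st2, Usp26, 1700080O16Rik, Gpc4, Gpc3. No measured gene lies between Mbnl3 and Hs6st2. Usp26, a deubiquitinase gene known from the testis, read 7.73, 8.04 and 7.99 against 8.57, 8.56 and 8.56, and rose by 0.64 ± 0.07 (limma adjusted p = 7.95e-06). 1700080O16Rik read 7.27, 7.27 and 7.32 against 7.98, 7.94 and 7.86, and rose by 0.64 ± 0.05 (adjusted p = 2.16e-07), from under the background level. Thus 4 adjacent genes, from Mbnl3 to 1700080O16Rik, had higher signals, 2 of them chosen for it and 2 not.

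The genes on both sides of that run went the other way or did not pass. Gpc3, a heparan sulfate proteoglycan of the cell surface, read 10.66, 10.81 and 10.73 against 9.58, 9.73 and 9.84, and fell by 1.02 ± 0.06 (limma adjusted p = 6.25e-08). Gpc4 fell by 0.23 ± 0.05 (adjusted p = 0.00401). Between Firre and Mbnl3, Stk26 fell by 0.18 (limma adjusted p = 0.0107). Rap2c (-0.05) did not pass, nor did Frmd7 (0.02), whose means of 7.30 and 7.31 were under background. Stk26 and Rap2c, both above background, thus lay between Firre and the run without a rise. Igsf1, beyond Firre, fell by 0.17 (limma adjusted p = 0.0134), to a FLAG-CTCFL mean of 7.56 under the background level. Stk26 lost its call after quantile normalization over the tested genes, and Igsf1 without control replicate 2 (0.0561) or 3 (0.0512). Of all 739 other X-linked genes 9.88% were higher and 31.1% lower, so lower calls were more frequent on this chromosome than over all genes.

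**Figure D3:**
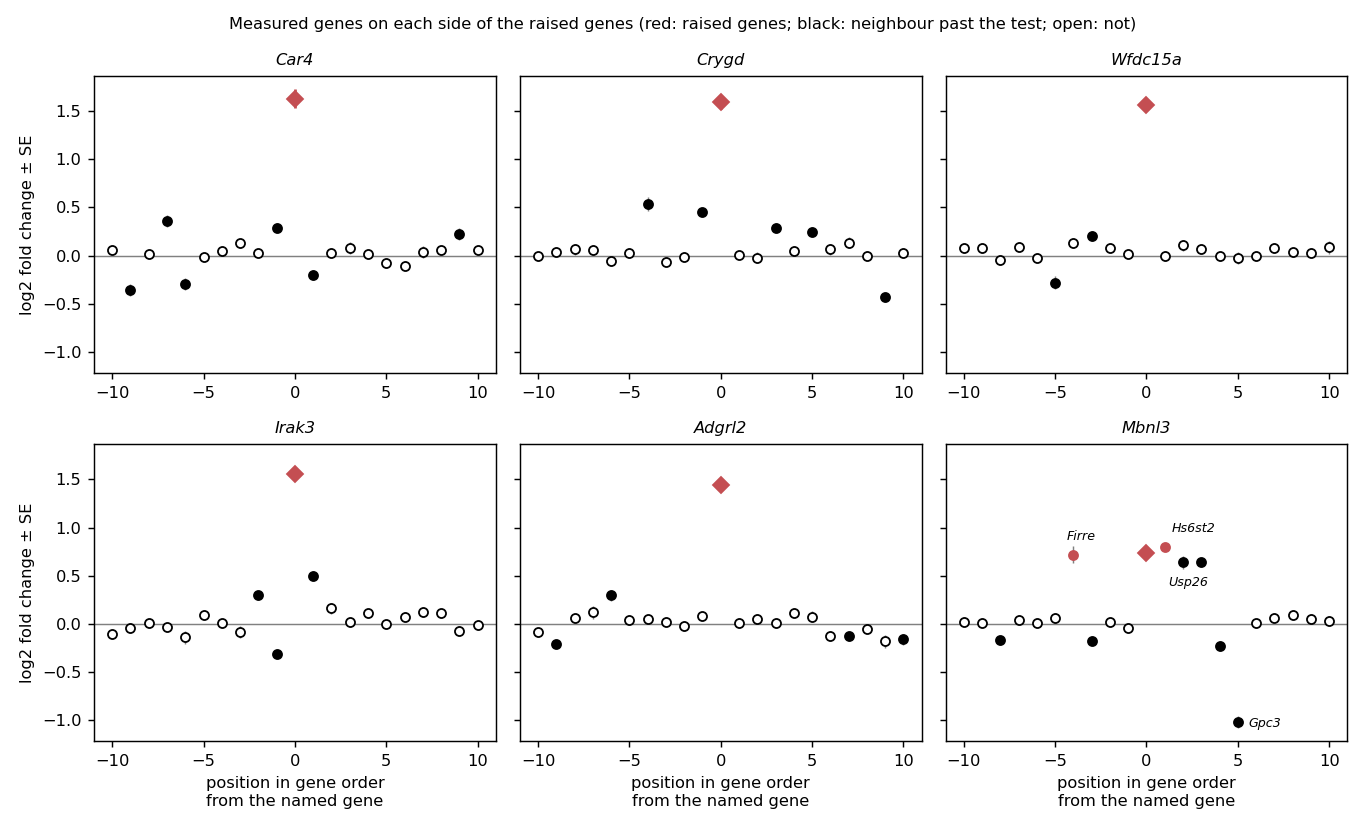
Log2 fold change with SE (y axis) of up to 10 measured genes on each side of 6 of the raised genes, in gene order (x axis). Red marks the raised genes, filled black neighbours past the limma test and open circles those that were not. In the Mbnl3 panel Hs6st2, Usp26 and the next gene sit between 0.64 and 0.80, and Gpc3 at -1.02.

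Pathway and family genes were then read from 8 lists that hold none of the raised genes. Of 179 measured, 64 changed (35.8%, against 30.9% of all genes), 24 higher (13.4%) and 40 lower (22.3%). Over all genes 12.5% were higher and 18.4% lower, and the counts of each list below stand beside these shares. Adjusted p-values are from limma over all genes.

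Of 15 other carbonic anhydrase genes 4 were higher (26.7%) and 4 lower (26.7%). These enzymes hydrate carbon dioxide in different parts of the cell. Car2, the abundant cytosolic enzyme, read 11.75, 11.74 and 11.65 in the control arrays and 12.66, 12.47 and 12.77 with FLAG-CTCFL, and rose by 0.92 ± 0.07 (adjusted p = 2.26e-07). Car7 rose by 0.44, and Car1 (0.22) and Car6 (0.16) rose within the background range. Car13 fell by 0.56, Car8 by 0.33, Car3 by 0.27 and Car5b by 0.16. Car5b lost its call without control replicate 2 (adjusted p = 0.0635 by limma) or FLAG-CTCFL replicate 3 (0.0778), and Car6 without control replicate 1 (0.0526). The membrane-bound relatives of Car4 did not pass, at -0.02 for Car9, -0.15 for Car12, -0.07 for Car14 and -0.03 for Car15. Car4 is also known from capillary endothelium: of 10 endothelial markers 1 was higher and 3 lower, and their mean log2 signal was 8.20 to 8.24 in the control arrays and 8.07 to 8.13 with FLAG-CTCFL. Pecam1 (-0.91), Tek (-0.36) and Vwf (-0.19) were the lower ones, Plvap (0.20) the higher, and Cdh5 gave -0.09.

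Of 18 lens genes other than Crygd, crystallins and structural proteins of lens fibres, Cryga alone passed. The rest lay between -0.06 and 0.08, among them Cryaa (-0.0022), Crybb2 (0.08), Crygs (0.07), Mip (-0.06) and Bfsp2 (0.05). The mean log2 signal of the list was 7.77 to 7.83 in the control arrays and 7.79 to 7.86 with FLAG-CTCFL, and 14 of the 18 had control means above the background level.

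Of 20 WAP domain genes, coding for small secreted proteins of which many inhibit proteases, Wfdc2 alone passed. It read 9.45, 9.33 and 9.33 against 8.65, 8.80 and 8.74, and fell by 0.64 ± 0.05 (adjusted p = 5.6e-07). Wfdc10 (0.20), Slpi (0.03) and Eppin (0.04) did not pass. Of the list 11 had control means within the background range. None was higher by limma, with 2 higher at an unadjusted p under 0.05 and 2 with array weights.

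Irak3 blocks signalling below the receptors at the step of the kinases IRAK1 and IRAK4. Of 25 measured genes of the IL-1 and Toll-like receptor pathway 3 were higher (12%) and 4 lower (16%). Tlr2, a receptor of bacterial lipoproteins, rose by 0.36 ± 0.06 (adjusted p = 0.000202), Tollip, another inhibitor of the pathway, by 0.29 and the kinase Ikbkb by 0.22. Nfkbia, an NF-kappaB inhibitor and target gene, read 9.94, 9.97 and 9.98 against 8.59, 8.73 and 8.71, and fell by 1.29 ± 0.05 (adjusted p = 7.18e-10). Irak1 read 9.64, 9.64 and 9.62 against 8.87, 9.01 and 8.92, and fell by 0.70 ± 0.05 (adjusted p = 1.03e-07). Tab3 fell by 0.77 and Ikbkg by 0.44. Irak1, Tab3 and Ikbkg are X-linked, and the share of lower calls on that chromosome, 31.1%, was given above; its part in these falls was not tested. Myd88 (0.0045), Traf6 (0.05), Irak2 (-0.08) and Tlr4 (-0.01) did not pass. The list had 5 higher and 4 lower after quantile normalization of the whole data set, against 3451 and 3654 of all 19937 genes. Of 8 immune and blood markers Cd68 alone passed, at -1.07, and Ptprc (0.08), Csf1r (0.10) and Itgam (0.01) had signals within the background range.

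Adgrl2 belongs to the latrophilins, which bind teneurins and FLRT proteins on neighbouring cells. Of 30 genes of latrophilins, these ligands and other adhesion receptors 4 were higher (13.3%) and 9 lower (30%). Adgrl1 (0.10 ± 0.04, limma adjusted p = 0.0726) did not pass, nor did Adgrl4 (0.05), with both means under background. Adgrl3 fell by 0.13 (adjusted p = 0.0352), a call lost under 5 of 15 alternatives. Among ligands Tenm4 rose by 0.35 ± 0.06 (adjusted p = 0.000267) and Tenm3 by 0.16, a call lost under 7 of 16, while Tenm1 (-0.11), Tenm2 (0.04), Flrt1 (0.14), Flrt2 (0.09) and Flrt3 (-0.06) did not pass. Adgra2 (0.20) and Adgrv1 (0.21) rose. The largest falls were in Adgre5, also called CD97 (-0.87), and Adgrg1 (-0.68), followed by Celsr3 (-0.41), Adgrd1 (-0.35), Adgra3 (-0.34) and Adgrg6 (-0.31). The counts were 7 higher and 10 lower after quantile normalization of the whole data set, against 3451 and 3654 of all 19937 genes.

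Hs6st2 acts late in heparan sulfate synthesis, after chain elongation and N-sulfation, and the sulfates it adds can be removed again outside the cell by Sulf1 and Sulf2. Of 41 measured genes of this pathway and its core proteins 11 were higher (26.8%) and 10 lower (24.4%). With 1 array left out 6 to 11 were higher and 9 or 10 lower. Over all genes the same fits gave 1905 to 2818 higher. Its closest relative Hs6st1 read 9.72, 9.69 and 9.77 in the control arrays and 9.51, 9.44 and 9.44 with FLAG-CTCFL, and fell by 0.26 ± 0.04 (adjusted p = 0.000406). Hs6st3 (-0.08) did not pass, with control signals of 7.72 to 7.86 near background. Hs2st1, the 2-O-sulfotransferase, rose by 0.21. Sulf1 read 9.11, 9.17 and 9.11 against 9.71, 9.65 and 9.84, and rose by 0.61 ± 0.05 (adjusted p = 1.17e-06). Sulf2 rose by 0.15 (adjusted p = 0.0405), a call lost under 7 of 16 alternatives. Of chain initiation and elongation, Xylt1 (0.40) rose, Extl3 (-0.54) fell and Ext1 (0.02) did not pass. The sulfate donor transporter Slc35b2 rose by 0.36 and the N-sulfotransferase Ndst2 fell by 0.37. Extl3 and Ndst2 lie on chromosome 14, where 37% of 702 genes were lower and 6.27% higher; the part of this in their falls was not tested. Of the core proteins Gpc6 (0.23), Gpc1 (0.20) and Sdc1 (0.20) rose, and Sdc2 (-0.35), Sdc3 (-0.38) and Sdc4 (-0.21) fell with Gpc3 and Gpc4. Gpc1 lost its call without control replicate 2 (adjusted p = 0.0763 by limma) or FLAG-CTCFL replicate 3 (0.0722), and Sdc1 without control replicate 1 (0.0520) or FLAG-CTCFL replicate 3 (0.0607). Sdc4 lost its call after quantile normalization over the tested genes (0.0543).

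Mbnl3 is the member of the muscleblind family known for supporting proliferating, undifferentiated cells, and Mbnl1 and Mbnl2 favour splicing patterns of differentiated cells. Of 20 genes of this family and other splicing regulators none was higher and 9 were lower by limma (45%, against 18.4% of all genes). At an unadjusted p under 0.05 1 was higher, and quantile normalization over the tested genes gave 2 higher and 8 lower. Mbnl2 read 10.64, 10.67 and 10.67 against 10.21, 9.97 and 10.05, and fell by 0.58 ± 0.06 (adjusted p = 4.21e-06). It lies on chromosome 14, with the share of lower genes given above, whose part in its fall was not tested. Mbnl1 fell by 0.21 ± 0.04 (adjusted p = 0.00255). The epithelial splicing regulators Esrp1 and Esrp2 fell by 1.15 and 0.26, as did Nova1 (-0.29), Celf4 (-0.27), Celf2 (-0.25) and Ptbp3 (-0.23). Ptbp2 (-0.16) lost its call under 8 of 16 alternatives and Celf2 for the mean of its probe sets. Celf1 (0.13), Ptbp1 (0.02) and Rbfox2 (-0.04) did not pass.

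Firre RNA binds the nuclear matrix protein hnRNPU, and its locus is known to be bound by CTCF. Of 10 measured genes of its partners and of X inactivation and escape 1 was higher (10%) and 3 lower (30%). Hnrnpu (0.04) and Smchd1 (-0.09) did not pass. Utp14a rose by 0.29, and Pbdc1 (-0.82), Eif2s3x (-0.67) and Xist (-0.25) fell, all on the X chromosome with its 31.1% of lower genes, whose part in these falls was not tested. Xist gave 7.61 to 7.72 in the control arrays of this male line and 7.38 to 7.46 with FLAG-CTCFL, at or near background in all. Kdm6a (0.06), Ddx3x (0.04) and Kdm5c (-0.15) did not pass.

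**Figure D4:**
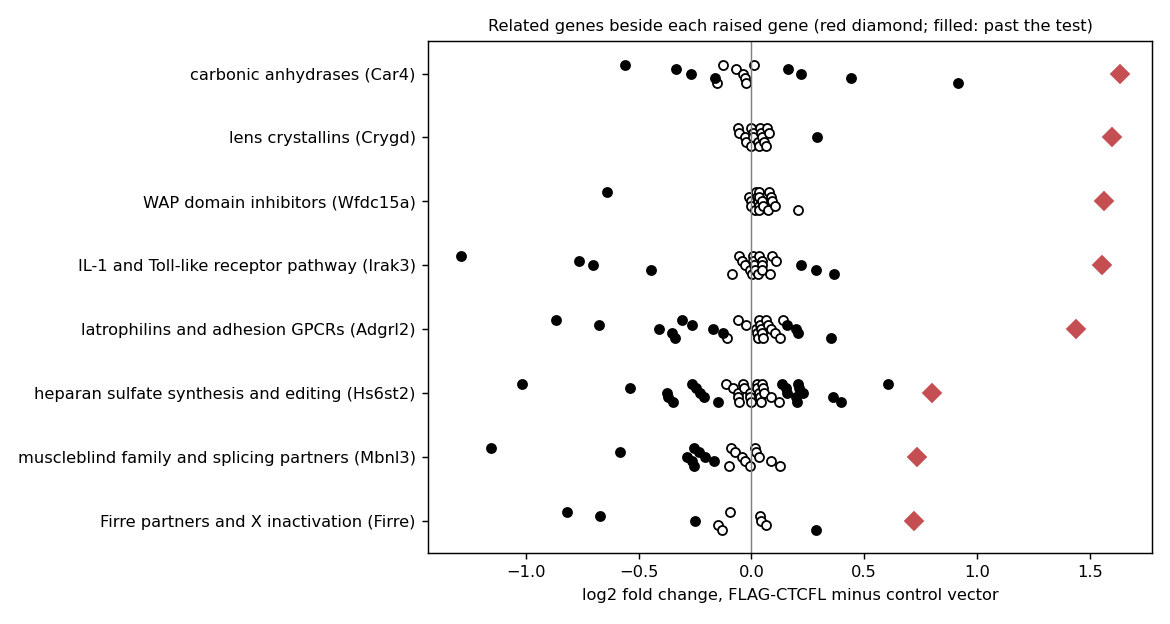
Log2 fold change (x axis) of the measured genes of 8 lists (y axis), each beside the raised gene it belongs to (red diamond). Filled circles passed the limma test and open circles did not. No gene of a list lies to the right of its diamond, from which nothing is read, since the raised genes were chosen for large rises. Car2 at 0.92 and Sulf1 at 0.61 are the highest list genes.

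Of lists for other cell types a culture could hold, counts of higher and lower genes were 2 and 1 of 13 for fibroblasts, 2 and 2 of 11 for neural cells, 2 and 0 of 10 for endoderm (0 lower also at an unadjusted p under 0.05 by limma), 3 and 1 of 9 for mesoderm and 2 and 2 of 9 for trophoblast. Over all genes 12.5% were higher and 18.4% lower. Mean log2 signals over all 6 arrays were 8.10 to 8.16 for neural, 7.81 to 7.89 for endoderm and 8.24 to 8.27 for mesoderm genes. In these lists the groups overlapped. Fibroblast list means were higher with FLAG-CTCFL, 7.929 to 8.009 against 7.891 to 7.928 in the control arrays. Trophoblast list means were lower with FLAG-CTCFL, 8.087 to 8.124 against 8.143 to 8.171. Single genes moved further, in both directions. Nes (0.68) and Pax6 (0.32) rose and Elavl3 (-0.64) and Map2 (-0.44) fell among neural genes. Of mesoderm genes Eomes rose (0.61) and Bmp4 fell (-1.26). Of trophoblast genes Gata3 (0.33) and Cdx2 (0.30) rose and Tfap2c (-0.73) and Plet1 (-0.61) fell. The part of such cells in the rises of the 8 genes was not tested. Fewer cells of a type and less RNA per cell cannot be told apart in such bulk samples.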

How the data were processed

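Column-purified RNA of 3 control vector and 3 FLAG-CTCFL samples was labelled and read on Affymetrix whole-transcript mouse gene arrays, per the labels' protocols. The authors deposited log2 values, a scale read from their range. How they corrected background, summarised probes and normalized arrays is not given in the sources used here. Of 34760 probe sets 21640 had 1 gene symbol in the platform annotation, 1321 several and 11799 none. A GRCm38.p6 gene table gave current names for 21553 of these, matched on Entrez ID, and the gene order. The brightest probe set by mean signal was kept, which gave 19937 genes; 0 columns were left out.

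The comparison used limma 3.58.1 under R 4.3.3 (lmFit, eBayes, group alone, two-sided, Benjamini-Hochberg, threshold 0.05) on all 6 arrays. Differences are FLAG-CTCFL minus control vector. No filter on dim genes was used. The members and lists were chosen with earlier results of these data known. The rule named all 8 genes; from each list the changed genes with the largest change, up to 6 each way, and 3 bright others; neighbours up to 3 positions away and changed ones up to 10; the 2 nearest profiles; and genes ranked beside each. Further genes were named after their values were seen. Motif strings were chosen after the promoters were seen. Alternatives were a replicate block, quantile normalization, median subtraction, filters at the 25th and 50th percentile, other uses of probe sets, a variance trend, array weights, a 1.5-fold minimum, 5 neighbours and each array left out. The fit, tested on simulated data of 19937 genes, recovered 94% of genes changed by 0.25 and 100% of those changed by 0.5 or more. It also called 9 unchanged genes. Far fewer genes were changed than in these data, and errors were drawn independently, so the simulation does not cover errors shared among arrays. No batch information was used here. Figures used Python 3.11.15 and matplotlib 3.10.9.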

Additional observations from a re-analysis of the deposited data

How the results depend on the processing

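All 8 raised genes kept their direction under every alternative that kept them; Hs6st2 was left out by the filter at the 50th percentile. Their median difference was 1.25 when probe sets of a gene were averaged, where Adgrl2 gave 0.94, and 1.43 to 1.52 with 1 array left out. With array weights Car4 gave 1.87 and Firre 0.87. Deviations of same-numbered arrays from their group means had correlations of 0.13, -0.20 and -0.02. With 3 arrays per group these values cannot tell whether the numbers pair the arrays, and the labels do not say. With the replicate block 5979 genes changed in place of 6161, 63 in place of 64 of the pathway and family genes, and 26 of the neighbours as before. Array weights gave 9204 changed genes over all, 4195 of them higher. The same fit gave 38 higher among pathway and family genes, and 48 changed neighbours, 27 higher and 21 lower. Higher neighbours numbered 21 after quantile normalization of the whole data set, which gave 3451 higher genes over all. They numbered 23 after quantile normalization over the tested genes, an alternative chosen after seeing the data, which gave 3943 higher genes over all. At a minimum change of 1.5-fold 709 genes changed over all. With 5 genes on each side 17 of 63 neighbours changed (27%, against 30.9% of all genes). Of these neighbours 15.9% were higher and 11.1% lower, against 12.5% and 18.4% of all genes. Of 87 changed genes of the lists and neighbourhoods 68 kept their call under every alternative that tested them, and none reversed. Signal near background limits Wfdc15a, Hs6st2 and Crygd.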
